A study of Mus musculus with 8 samples.

Results

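The interstitial collagen chains described here are the products of 10 genes, Col1a1, Col1a2, Col3a1, Col5a1, Col5a2, Col6a1, Col6a2, Col6a3, Col12a1 and Col14a1. Their probe sets were chosen by gene symbol: every probe set of the array whose platform annotation gives 1 of these symbols was taken, whatever its signal. That gave 23 probe sets for 10 of the 18193 genes that the platform names with 1 symbol. RNA came from the mesenchyme that wraps the airway epithelium, dissected out of the lungs of CD1 mouse embryos staged e11.5 to e12.5 (days of gestation), and it was hybridised to 8 arrays in 4 groups of 2. Tip mesenchyme surrounded the growing ends of the airway branches and was lysed straight after dissection. For the Wnt1 culture, stalk mesenchyme was kept for 12 h on tissue culture plastic in growth medium with Wnt1, a secreted signalling protein, at 400 ng/ml, and for the control culture it was kept equally long in growth medium alone. Uncultured stalk mesenchyme, from around the airway behind the tips, was lysed straight after dissection like tip. The labels name no mutation or transgene, and they do not say whether embryos were pooled or whether the 2 replicates of a group are separate litters. The p-values therefore rest on array-to-array spread that may be technical.

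Fibrillar collagens are triple helices that assemble into the tension-bearing fibrils of connective tissue. Type I collagen is built from the chains encoded by Col1a1 and Col1a2, type III, the more pliable fibril of embryonic and vascular tissue, from Col3a1, and type V, which nucleates fibrils and limits their width, from Col5a1 and Col5a2. Type VI collagen is a beaded filament of the chains of Col6a1, Col6a2 and Col6a3 that links cells to the fibril network, and types XII and XIV (Col12a1 and Col14a1) sit on fibril surfaces without forming fibrils themselves. In the lung these chains are made mainly by fibroblasts and other mesenchymal cells. Col3a1 and Col5a2 are neighbours on chromosome 1, and Col6a2 and Col6a1 are neighbours on chromosome 10, in the order of protein-coding genes of the RefSeq table.

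Promoters of 6 of the 10 genes were in the RefSeq table used (build GRCm38.p6, 250 bases before to 50 bases after the gene start, 300 bases each). The 3 below were picked on the brightest probe set of each gene. Col1a2 and Col3a1 lay below the median of all probe sets in culture under every scaling tried. Col6a1 was among the chains with the lowest tip signals relative to stalk, after Col6a3 and Col6a2. They are written 5′ to 3′ on the strand of the gene, and capitals mark matches to 4 motifs searched on both strands: the CCAAT box (letters CCAAT), the TATA box (letters TATAAA), the GC box (letters GGGCGG) and the AP-1 site (letters TGANTCA). A further motif, the CArG box bound by serum response factor, was searched too and was in none of the 3.
Col1a2, chr6:4505368-4505667, plus strand: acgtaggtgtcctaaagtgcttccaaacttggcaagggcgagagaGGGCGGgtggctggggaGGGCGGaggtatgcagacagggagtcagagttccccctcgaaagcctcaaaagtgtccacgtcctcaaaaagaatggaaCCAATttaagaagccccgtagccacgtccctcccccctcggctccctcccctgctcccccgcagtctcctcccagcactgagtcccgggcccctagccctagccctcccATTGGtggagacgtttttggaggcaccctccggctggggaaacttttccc
Col3a1, chr1:45311288-45311587, plus strand: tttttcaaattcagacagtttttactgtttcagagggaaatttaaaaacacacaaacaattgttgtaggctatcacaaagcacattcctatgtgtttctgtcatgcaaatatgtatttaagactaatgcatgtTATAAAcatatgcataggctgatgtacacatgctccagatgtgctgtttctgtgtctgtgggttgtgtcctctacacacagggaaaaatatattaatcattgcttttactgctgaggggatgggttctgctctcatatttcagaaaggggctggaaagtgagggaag
Col6a1, chr10:76725995-76726294, minus strand: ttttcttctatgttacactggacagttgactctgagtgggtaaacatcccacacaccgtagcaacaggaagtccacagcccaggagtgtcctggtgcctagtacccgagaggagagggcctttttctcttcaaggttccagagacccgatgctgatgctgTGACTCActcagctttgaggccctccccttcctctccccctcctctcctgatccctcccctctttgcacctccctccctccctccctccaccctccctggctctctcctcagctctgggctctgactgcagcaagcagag
The Col1a2 window held GGGCGG 205 and 188 bases before the start and CCAAT 109 bases before it, with a further CCAAT on the opposite strand at the start itself. The Col3a1 window held TATAAA 117 bases before the start and none of the other motifs. The Col6a1 window held the palindromic TGACTCA 90 bases before the start. Of the windows not shown, that of Col6a3 held none of the motifs, and those of Col6a2 and Col5a1 held GGGCGG alone. Of all 32851 promoters in the table, 37.4% held CCAAT, 35.7% GGGCGG, 13.6% TATAAA, 7.81% TGANTCA and 1.63% a CArG box, so these matches are descriptions of letters and not of binding.

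The deposited values are array signals on a linear scale, and 1 probe set reports part of 1 transcript, so levels are compared between arrays for the same probe set and never between probe sets. Markers of lung mesenchyme bore out the label of the uncultured tissue, with 8 of 8 above 298.159, the highest array median and here the stand-in for the noise level, on both tip arrays and on both stalk arrays, and 6 of 8 in each culture. The culture arrays stood apart. Their median signals were 149 to 298, against 76.2 to 99.4 on uncultured arrays, although the 2% trimmed mean was 500.0 on all 8, and their added hybridisation controls were 3.01 to 11.7 times the uncultured mean, against 0.581 to 1.22 times on single uncultured arrays. The ratio of 3′ to 5′ signal of Actb, which tracks RNA integrity and labelling length, was 6.81 on Wnt1 culture replicate 2 and 21.2 to 24.4 on the other culture arrays, against 2.02 to 4.52 on uncultured arrays. The comparisons of culture with stalk are therefore described also under 3 other scalings of the arrays, to equal medians, by quantiles, and to the hybridisation controls. For Wnt1 against control culture, the collagen probe sets are summarised under these scalings, and most single values are on the deposited scale.

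Each chain is described by its leading probe set, the probe set of the gene with the highest mean over the 8 arrays. Of the 23 probe sets, 20 were bright enough to be tested (2 or more arrays above 96.44, which is the 40th percentile), and Col5a1 1416741_at, Col12a1 1445751_at and Col14a1 1453931_at were not. The leading probe sets of 6 chains, Col1a1, Col1a2, Col3a1, Col5a1, Col5a2 and Col6a2, were above the noise level on all 8 arrays, those of Col6a1, Col6a3 and Col14a1 on 7, and that of Col12a1 on 3, all of them culture arrays.

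**Figure D1:**
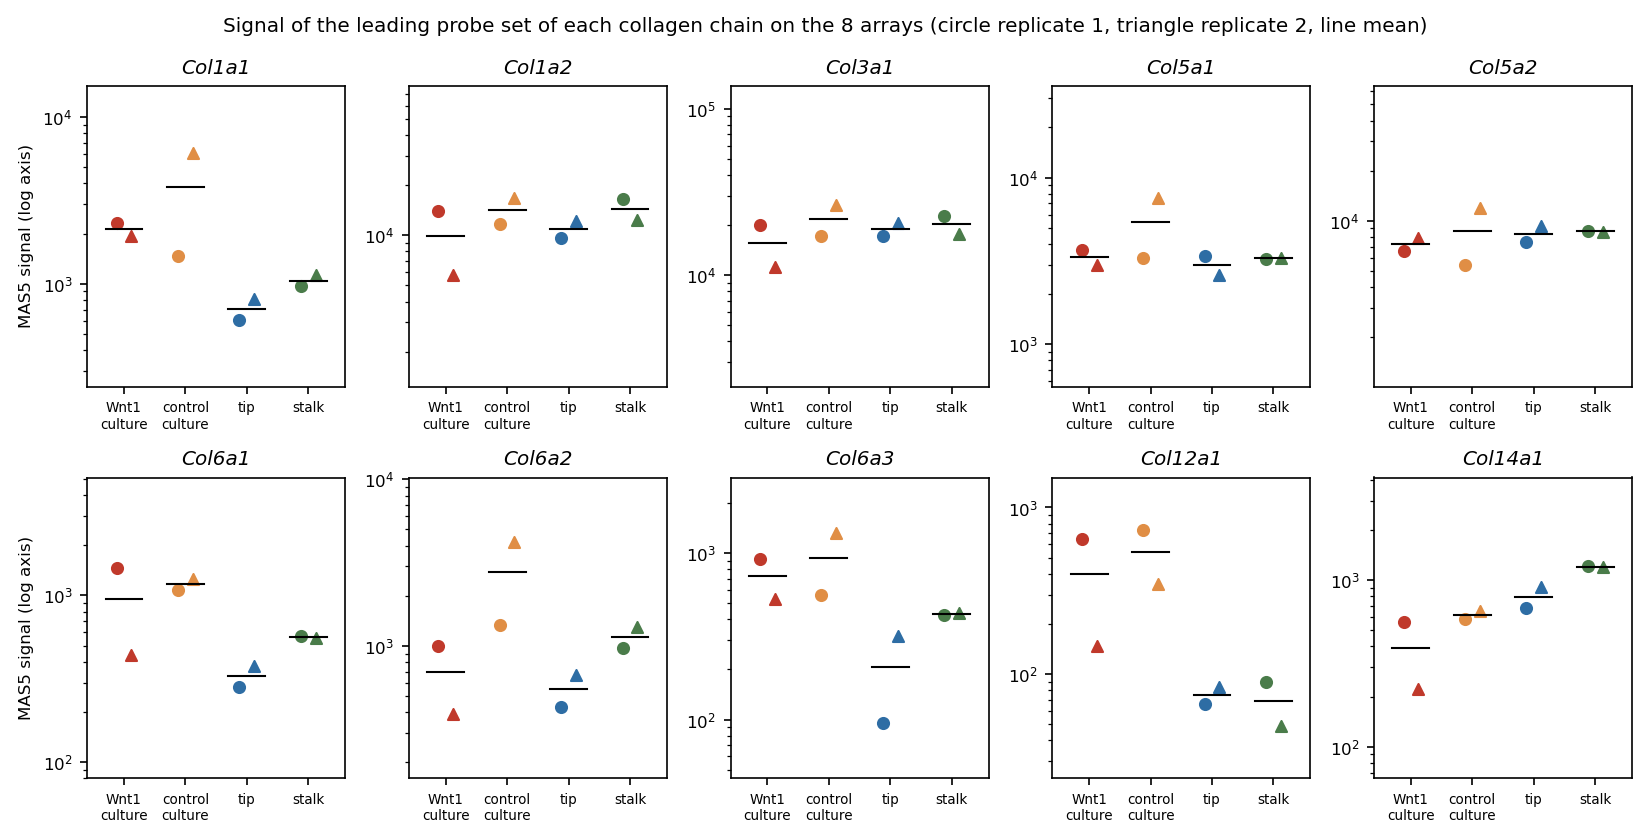
Signal of the leading probe set of each collagen chain on each of the 8 arrays, 1 panel per gene, on a log axis of array signal. Groups run from Wnt1 culture through control culture and tip to stalk. Circles are replicate 1, triangles replicate 2 and lines the arithmetic mean of 2 arrays. Col6a1, Col6a2, Col6a3, Col1a1, Col1a2 and Col14a1 are lower on both tip arrays than on both stalk arrays, and the culture replicates spread widely for most chains.

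The first question of the design is how tip mesenchyme differs from stalk. The collagen chains were mostly lower in tip, and none passed the test. With limma on log2(signal + 44), fitted to all 8 arrays and adjusted by Benjamini-Hochberg over 37414 probe sets with a threshold of 0.05, 0 of the 20 collagen probe sets were called, as were 0% of all probe sets. At an unadjusted p below 0.05 there were 155 probe sets in all and 0 collagen probe sets. The errors in this fit come from a spread shared by all 4 groups. Array quality weights were 2.26 to 2.29 on uncultured arrays and 0.380 to 0.508 on culture arrays. With the tip and stalk arrays alone, limma gave an unadjusted p below 0.05 for 6 of 20 collagen probe sets and 1706 in all. With array quality weights these were 5 and 2056. No collagen probe set was called in either fit. The log2 fold change of tip minus stalk was below 0 for 9 of the 10 leading probe sets and 18 of all 20, against 46.4% of all probe sets tested. Both tip arrays were below both stalk arrays for 6 leading probe sets and 9 of all 20, against 14.6% of all probe sets. The median was -0.47 over the leading probe sets and -0.37 over the 20, against 0.03 over all tested. Without tip replicate 1 the median of the 20 was -0.29 and 13 of them were below 0. In bulk tissue, fewer cells of a type and less RNA per cell cannot be told apart.

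Among leading probe sets, those of the filament-forming type VI chains had the lowest tip signals relative to stalk. Col6a3, the long chain of the filament, had signals of 95.8 and 318 in tip, against 422 and 433 in stalk. Col6a2 had 429 and 673 in tip, against 975 and 1291 in stalk. Col6a1 had 280 and 377 in tip, against 571 and 553 in stalk. For each of the 3 chains the tip arrays lay below the stalk arrays without overlap, and Col6a3 was below the noise level on tip replicate 1 alone among the arrays. The log2 fold changes were -1.07 ± 0.53 for Col6a3, -1.001 ± 0.53 for Col6a2 and -0.71 ± 0.48 for Col6a1 (SE), each with an adjusted p of 0.99996 (limma). Col6a3 moved most with the choice of arrays, with -1.75 without tip replicate 2 and -0.38 without tip replicate 1. The other Col6a2 probe set, 1426947_x_at, whose suffix marks probes that may cross-hybridise, overlapped between the groups at 209 and 384 in tip, against 348 and 396 in stalk.

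Among the fibril-forming chains, the leading probe sets of type I did not overlap between tip and stalk and those of types III and V did, and none of these chains passed the test. Col1a1 had 605 and 813 in tip, against 965 and 1122 in stalk, without overlap and with a log2 fold change of -0.54 ± 0.51. Its dim second probe set, 1423669_at, was at -0.75 ± 0.75 with overlapping groups, at 14.0 and 20.6 in tip, against 127 and 17.9 in stalk. Col1a2 had 9574 and 12099.9 in tip, against 16559 and 12354 in stalk, again without overlap, although the higher tip value lay close under the lower stalk value. Col1a2 differed by -0.41 ± 0.45, and its other probe sets, 1423110_at at -0.48 and 1446326_at at -0.72, were also below 0. Col3a1 had 17136 and 20496 in tip, against 22794 and 17589.7 in stalk, which overlap. The fold changes of Col3a1 (-0.10 ± 0.44), Col5a1 (-0.13 ± 0.40) and Col5a2 (-0.05 ± 0.41) were small beside their errors, and their 95% intervals were -1.04 to 0.85, -0.98 to 0.71 and -0.93 to 0.82. The second Col5a2 probe set, 1450625_at, was lower in tip without overlap, at 3648 and 3270.3, against 4187 and 5078 in stalk, with a fold change of -0.41 ± 0.49 that is as far from 0 as that of Col1a2. For the leading Col5a2 probe set, tip signals were 7491 and 9256 and stalk signals 8691 and 8610.4, while for Col5a1 they were 3387 and 2619 in tip and 3245 and 3300.3 in stalk.

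The fibril-associated chains differed from each other. Col14a1, which binds the fibril surface, had 678 and 909 in tip, against 1210.1 and 1205 in stalk. Its tip arrays were lower without overlap, with a log2 fold change of -0.59 ± 0.43, although its dim second tested probe set 1428455_at was at 0.17. Col12a1 was below the noise level on all 4 of these arrays, at 66.2 and 83.7 in tip and 89.5 and 48.6 in stalk, so no difference between tip and stalk could be measured for it. Under all 4 scalings, 9 leading probe sets lay below the median of all probe sets and Col12a1 above it.

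Markers of other cell types moved with this comparison. Airway smooth muscle markers were below 0 for 7 of 8 genes, with a summed signal of 1420 and 4372 in tip, against 5047 and 6333 in stalk. Endothelial markers were below 0 for 7 of 7 tested genes and summed to 4408 and 6439 in tip, against 7699 and 8878 in stalk, and macrophage markers were below 0 for 8 of 8, with sums of 1497 and 4809 in tip and 4185 and 4755 in stalk. Mesothelial markers were above 0 for 5 of 6, with sums of 7505 and 4450.4 in tip and 3415 and 3292 in stalk. None of these markers passed the test, and their part in the collagen values was not tested.

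**Figure D2:**
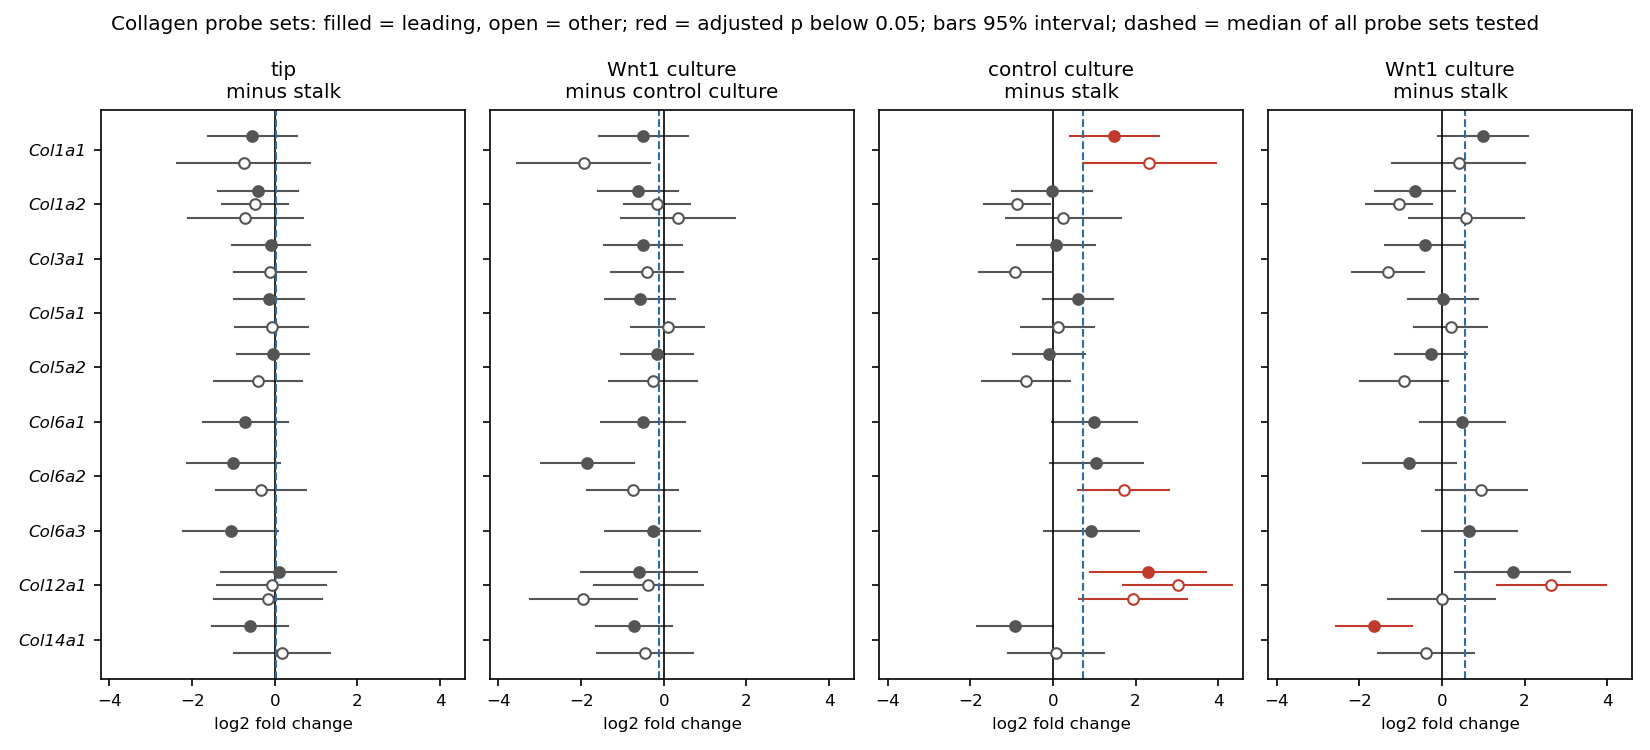
Log2 fold changes of the 20 tested collagen probe sets in 4 comparisons, with 95% intervals of the limma fit. Filled points are leading probe sets, open points the other probe sets of the gene, red marks an adjusted p below 0.05 and the dashed line is the median of all 37414 probe sets. No collagen probe set is called in tip minus stalk or in Wnt1 culture minus control culture, 6 are called higher in control culture than in stalk as deposited, and under the scaling to hybridisation controls 10 are called lower there. Of all probe sets, 6286 are called higher and 2401 lower in that comparison as deposited, and 250 and 17773 with the hybridisation controls.

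The second question is what Wnt1 did to cultured stalk. Collagen signals were mostly lower with Wnt1 than in control medium, none passed the test, and the direction of most chains rested on which culture arrays were compared. Of the 20 probe sets, 0 were called, beside 0% of all probe sets, and at an unadjusted p below 0.05 there were 3, of 2876 in all. The errors again come from a spread shared with the uncultured arrays. In limma with the 2 culture groups alone there were 3, of 710 in all, and with array quality weights 2, of 740. The log2 fold change of Wnt1 minus control culture was below 0 for 10 of 10 leading probe sets and 18 of 20, against 57.8% of all probe sets, but Col5a2 turned to 0.09 with equal medians and to 0.22 with the hybridisation controls, and Col6a3 to 0.01 with the hybridisation controls. Both Wnt1 arrays lay below both control arrays for 2 leading probe sets and 6 of 20, against 16.4% of all. The median was -0.54 over leading probe sets and -0.50 over the 20, against -0.11 over all tested. With equal medians, by quantiles and with the hybridisation controls, the median of the 20 was -0.25, -0.45 and -0.16, against 0.08, -0.004 and 0.15 over all. Below 0 were 16, 18 and 14 of the 20, beside 44.1%, 50.3% and 37.9% of all probe sets, and 0 were called. Without control culture replicate 2 the median of the 20 was -0.21 with 11 below 0, and without Wnt1 culture replicate 2 it was -0.11 with 12 below 0, while without control culture replicate 1 it was -0.83 with 20 below 0 and without Wnt1 culture replicate 1 it was -0.72 with 19 below 0.

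Col6a2 had the largest difference among leading probe sets. Its signals were 996 and 391 in Wnt1 culture, against 1339 and 4203 in control culture, without overlap. The log2 fold change was -1.85 ± 0.53, with an unadjusted p of 0.0033 and an adjusted p of 0.593 (limma), and it ran from -2.66 to -1.04 as 1 array at a time was left out. Col14a1 was the other leading probe set without overlap, at 559 and 221 in Wnt1 culture, against 583 and 655 in control culture, with a fold change of -0.73 ± 0.43. The lower Wnt1 value of Col14a1 was below the noise level. Its second probe set 1428455_at was also lower without overlap at -0.46.

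The remaining chains overlapped between media on their leading probe sets. Col1a1 had 2318 and 1936 in Wnt1 culture, against 1463 and 6124 in control culture, so that both Wnt1 values lay between the control values. The dimmer Col1a1 probe set 1423669_at was at 248 and 19.7 with Wnt1, against 483 and 471 without, a difference of -1.93 ± 0.75 with an adjusted p of 0.610. Col12a1 had 645 and 148 in Wnt1 culture, against 736 and 345 in control culture, and probe set 1440101_at of the same gene, below the noise level on every array, differed by -1.95 ± 0.61 (adjusted p = 0.593). These 2 dim probe sets and the leading Col6a2 probe set are the 3 with an unadjusted p below 0.05. Col1a2 had 14069 and 5787 with Wnt1, against 11702 and 16723 without, and Col3a1 had 20144 and 11149 with Wnt1, against 17148 and 26232 without. In both of these bright fibril chains the lower Wnt1 value and the higher control value came from replicate 2 of each medium. Col5a1 had 3674 and 2992 with Wnt1, against 3308 and 7511 without, Col5a2 had 6571 and 7927 with Wnt1, against 5423 and 11971 without, and Col6a1 had 1454 and 441 with Wnt1, against 1083 and 1258 without. Col6a3 had 926 and 531 with Wnt1, against 555 and 1314 without.

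Uncultured stalk also allows a comparison of stalk after 12 h in control medium with stalk at dissection. On the deposited scale the leading probe sets of 2 of the 10 chains rose, those of Col12a1 and Col1a1. A further probe set of Col6a2 rose too, and none fell. The bright fibril chains Col1a2, Col3a1 and Col5a2 stayed near 0. Most of the array was higher, but its brighter part was not. Over the 16718 probe sets above the 60th percentile on at least 4 arrays, the median was -0.15, with 55.6% below 0. Of the 20 probe sets, 6 were called higher and 0 lower, beside 16.8% of all probe sets called higher and 6.42% lower. These calls follow the scaling of the arrays: with equal medians 1 collagen probe set was called higher and 4 lower, by quantiles 0, and with the hybridisation controls 0 higher and 10 lower. Of all 37414 probe sets, 1615 were called higher and 9457 lower with equal medians. By quantiles these were 998 and 1270, and with the hybridisation controls 250 and 17773. The count of 6 also moved with the arrays used: it was 3 without either tip array, 0 without stalk replicate 1, 1 without stalk replicate 2, 2 without control culture replicate 1, 5 without control culture replicate 2 (2 of them lower) and 8 without either Wnt1 array (2 of them lower). Over all probe sets, higher calls made up 72.4% of calls as deposited, 14.6% with equal medians, 44.0% by quantiles and 1.39% with the hybridisation controls. The median of all probe sets was 0.72 as deposited, so changes relative to that median are given beside the fitted values. The 6 leading probe sets that were higher without overlap (10 of 20) stand beside 51.4% of all probe sets, and the 1 that was lower without overlap (3 of 20) beside 19.7%.

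Col12a1, whose product decorates fibrils in tissues under tension, had the largest fold change among leading probe sets as deposited, and it rose on 3 probe sets on that scale. Its leading probe set was at 736 and 345 in control culture, against 89.5 and 48.6 in stalk. Probe set 1434411_at was at 508 and 643 in control culture, against 3.67 and 77.4 in stalk, and 1440101_at at 226 and 165, against 29.5 and 7.86. No control value overlapped a stalk value in any of these 3 probe sets. The log2 fold changes were 2.31 ± 0.65 (adjusted p = 0.027), 3.02 ± 0.62 (adjusted p = 0.0094) and 1.94 ± 0.61 (adjusted p = 0.036), although the leading value turned to -0.06 with the hybridisation controls. With equal medians, by quantiles and with the hybridisation controls the adjusted p was 0.102, 0.155 and 0.947 for the leading probe set, so its call was lost in all 3, while 1434411_at kept a call with equal medians alone (0.031, against 0.078 and 0.224). Because stalk was below the noise level on all 3 probe sets, and 1440101_at was below it on all 8 arrays, the sizes are uncertain: with all values raised to that level, the leading fold change was 0.69 (adjusted p = 0.530). The leading probe set also missed the threshold without stalk replicate 1 (2.57, adjusted p = 0.103), without stalk replicate 2 (2.04, adjusted p = 0.196) and without control culture replicate 1 (1.81, adjusted p = 0.163). Measured from the median of all probe sets, a distance with no test of its own, the leading probe set was 1.44 to 1.59 higher and 1434411_at 2.29 to 2.49 higher over the 4 scalings.

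Col1a1 was at 1463 and 6124 in control culture, against 965 and 1122 in stalk. Both cultures were above both stalk arrays, but the control replicates differed far from each other. The fold change was 1.49 ± 0.51 (adjusted p = 0.047) as deposited and 1.85 by quantiles (adjusted p = 0.057), while it was -0.01 with equal medians and -1.41 with the hybridisation controls. Without control culture replicate 2 it was 0.47, and without control culture replicate 1 it was 2.51 (adjusted p = 0.011), the only array whose absence left the call in place. Without each of the other 7 arrays in turn the adjusted p was 0.052 to 0.338. Relative to the median of all probe sets, Col1a1 was 0.17 to 1.79 higher over the 4 scalings. Its other probe set, 1423669_at, at 483 and 471 in control culture and 127 and 17.9 in stalk, rose by 2.34 ± 0.75 (adjusted p = 0.040) as deposited. Both stalk values of that probe set were below the noise level, so the size is uncertain. It was above 0 under all 4 scalings, but the adjusted p was 0.129 with equal medians, 0.162 by quantiles and 0.788 with the hybridisation controls.

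The partner chain of type I collagen did not follow. Col1a2 was at 11702 and 16723 in control culture, against 16559 and 12354 in stalk, an overlap with a fold change of -0.03 ± 0.45. Col3a1 was at 17148 and 26232, against 22794 and 17589.7 in stalk (0.08 ± 0.44), and Col5a2 at 5423 and 11971, against 8691 and 8610.4 in stalk (-0.10 ± 0.41). Relative to the median of all probe sets these 3 chains were lower under all 4 scalings. The distances were -1.46 to -0.27 for Col1a2, -1.35 to -0.55 for Col3a1 and -1.52 to -0.03 for Col5a2. As deposited, none of these 3 leading probe sets was below -0.15, the median of the brighter probe sets given above. Their second probe sets were further below 0, at -0.87 for Col1a2 1423110_at, -0.91 for Col3a1 1427884_at and -0.65 for Col5a2 1450625_at, and none of these was called as deposited or by quantiles. All 3 were called lower with equal medians (limma, adjusted p = 0.0093, 0.012 and 0.043) and with the hybridisation controls (0.0039, 0.0033 and 0.0069). The 3 leading probe sets were called lower with the hybridisation controls alone (adjusted p = 0.025, 0.029 and 0.023). Col5a1, at 3308 and 7511 in control culture, against 3245 and 3300.3 in stalk, had a fold change of 0.60 ± 0.40, and its position relative to the median changed sign with the scaling.

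Type VI chains were higher in control culture than in stalk on the deposited scale, without passing the test on their leading probe sets, and they turned below 0 with equal medians and with the hybridisation controls. Col6a1 was at 1083 and 1258 in control culture, against 571 and 553 in stalk, with a fold change of 0.999 ± 0.48 (adjusted p = 0.128). Col6a2 was at 1339 and 4203, against 975 and 1291 in stalk (1.06 ± 0.53, adjusted p = 0.141), and Col6a3 at 555 and 1314, against 422 and 433 in stalk (0.93 ± 0.53, adjusted p = 0.193). All 3 were higher without overlap. The Col6a2 probe set 1426947_x_at was called, at 1077 and 1606 in control culture, against 348 and 396 in stalk (1.71 ± 0.51, adjusted p = 0.032), and it was 0.48 to 1.70 above the median of all probe sets over the 4 scalings. That call was lost with equal medians, by quantiles and with the hybridisation controls (adjusted p = 0.750, 0.080 and 0.323). Col14a1 went the other way, at 583 and 655 in control culture, against 1210.1 and 1205 in stalk, with -0.92 ± 0.43 and an adjusted p of 0.120 as deposited and 0.221 by quantiles. It was called lower with equal medians (-2.37, adjusted p = 0.0051) and with the hybridisation controls (-3.70, adjusted p = 0.00079). Relative to the median of all probe sets Col14a1 was -2.13 to -0.92 under the 4 scalings. Its deposited-scale value ran from -0.997 to -0.84 as 1 array at a time was left out. The dim Col14a1 probe set 1428455_at was at 0.08 ± 0.54, with overlapping groups.

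**Figure D3:**
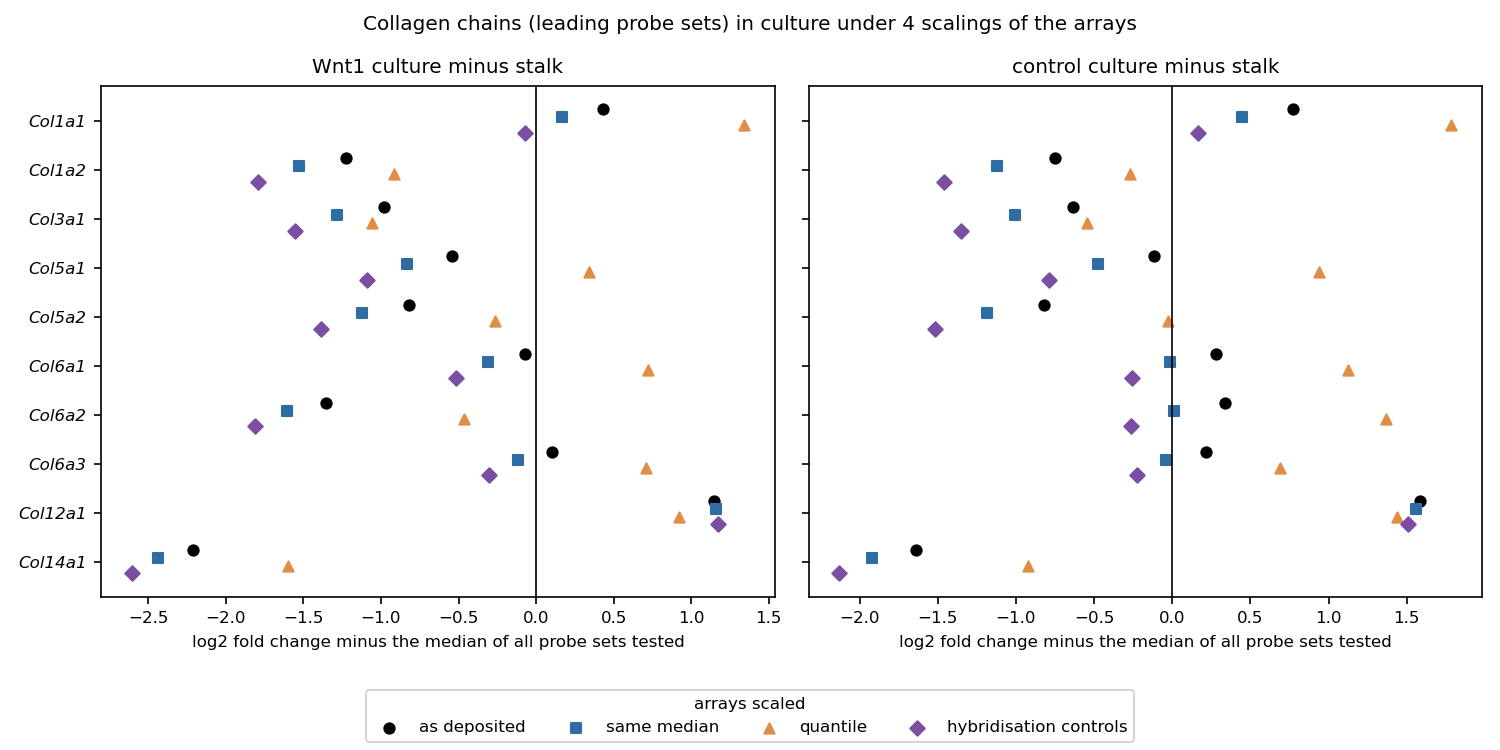
Log2 fold change of each leading collagen probe set minus the median of all probe sets tested, for Wnt1 culture minus stalk (left) and control culture minus stalk (right), under 4 scalings of the arrays shown by symbol. Col12a1 stays above 0 in both panels, although it was below the noise level on stalk and on Wnt1 culture replicate 2. Col1a2, Col3a1, Col5a2 and Col14a1 stay below 0 in both, and Col5a1, Col6a1 and Col6a3 cross 0 in both. As deposited, probe sets above the 60th percentile on at least 4 arrays had medians of -0.17 (left) and -0.15 (right). Those of all probe sets were 0.56 and 0.72.

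Stalk kept in Wnt1 is set against stalk at dissection for completeness, and this comparison shares its stalk arrays with the preceding one. Col12a1 rose on 1 probe set and Col14a1 fell on 1 probe set. Of the 20 probe sets, 1 was called higher and 1 lower, beside 7.09% of all probe sets called higher and 4.34% lower. With equal medians 0 collagen probe sets were called higher and 5 lower, by quantiles 0, and with the hybridisation controls 0 higher and 10 lower. Of all 37414 probe sets, 1243 were called higher and 7256 lower with equal medians. By quantiles these were 419 and 476, and with the hybridisation controls 241 and 15837. Higher calls made up 62.0%, 14.6%, 46.8% and 1.499% of all calls as deposited, with equal medians, by quantiles and with the hybridisation controls, in that order. The calls numbered 1 without tip replicate 1, tip replicate 2 or Wnt1 culture replicate 1, 0 without either stalk array, and 4 without either control culture array or without Wnt1 culture replicate 2. The median of all probe sets was 0.56, but it was -0.17 over the 16718 above the 60th percentile on at least 4 arrays. Both Wnt1 arrays were above both stalk arrays for 3 leading probe sets (6 of 20), beside 45.0% of all, and below them for 2 (5 of 20), beside 19.9%.

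Col14a1 was at 559 and 221 in Wnt1 culture, against 1210.1 and 1205 in stalk, without overlap. It fell by 1.65 on the log2 scale (SE 0.43, adjusted p = 0.031), was below 0 under all 4 scalings and lay -2.61 to -1.60 from the median of all probe sets over them. By quantiles its adjusted p was 0.074, and the call was lost in 9 of 22 alternatives. Among these were leaving out tip replicate 1 or 2 (adjusted p = 0.055 and 0.058), stalk replicate 1 or 2 (0.172 and 0.222) and Wnt1 culture replicate 2 (-1.05, adjusted p = 0.0503). The dim Col14a1 probe set 1428455_at was at -0.38 ± 0.54, with overlapping groups. Col12a1 1434411_at was at 432 and 430.4 in Wnt1 culture, against 3.67 and 77.4 in stalk, where it was below the noise level. Its log2 fold change was 2.64 ± 0.62, with an adjusted p of 0.022 (limma). Col12a1 1440101_at, below the noise level on every array, was at -0.01 ± 0.61. The adjusted p of 1434411_at was 0.051 with equal medians, 0.141 by quantiles and 0.253 with the hybridisation controls. The leading Col12a1 probe set, at 645 and 148, against 89.5 and 48.6 in stalk, was at 1.71 ± 0.65 with an adjusted p of 0.088 (limma). It turned to -0.32 with the hybridisation controls, and was 0.92 to 1.17 above the median of all probe sets over the 4 scalings. The 2 Wnt1 arrays were unlike: the 148, on replicate 2, was below the noise level. Among all signals of its array this probe set stood at percentile 78.2 and 49.8 in Wnt1 culture, against 48.8 and 41.0 in stalk.

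The other chains did not pass the test against stalk. Col1a1, at 2318 and 1936 in Wnt1 culture, against 965 and 1122 in stalk, was higher without overlap as deposited (0.996 ± 0.51, adjusted p = 0.175), and it was at -0.27 with equal medians and -1.56 with the hybridisation controls. Col1a2 was at -0.66 ± 0.45, Col3a1 at -0.42 ± 0.44, Col5a2 at -0.26 ± 0.41 and Col6a2 at -0.79 ± 0.53, and these 4 leading probe sets were below the median of all probe sets under the 4 scalings. The other Col6a2 probe set, 1426947_x_at, pointed the other way at 1378 and 412 in Wnt1 culture, against 348 and 396 in stalk, higher without overlap (0.96 ± 0.51, adjusted p = 0.196), and its position relative to the median turned with the scaling. For Col3a1 the second probe set 1427884_at, at 1845 and 1168 in Wnt1 culture, against 3173 and 4330.3 in stalk, came closest to a call (-1.31 ± 0.41, adjusted p = 0.051). Col5a1 (0.02), Col6a1 (0.49) and Col6a3 (0.66) changed sign with the scaling. In these culture comparisons probe sets of 1 gene did not always point the same way: in each of the 2, 3 of the 10 further probe sets had a sign opposite to that of the leading one.

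Markers of other cell types moved with culture too. Airway smooth muscle markers summed to 150358 and 179516 in Wnt1 culture and to 126503 and 111020.0 in control culture, against 5047 and 6333 in stalk, and 6 of 8 were called higher in each culture (4 to 5 of 8 with equal medians or by quantiles, 1 of 8 with the hybridisation controls). Lung mesenchyme markers were called lower for 7 of 8 in control culture (3 of 8 by quantiles) and for 6 of 8 in Wnt1 culture (2 of 8 by quantiles), where 1 was called higher. Macrophage markers summed to 11849 and 11703 in Wnt1 culture and to 12083 and 22739 in control culture, against 4185 and 4755 in stalk, with 4 of 8 in Wnt1 culture and 5 of 8 in control culture called higher, beside 7.09% and 16.8% of all probe sets. Macrophage markers called higher numbered 0 in both cultures with equal medians, 2 in Wnt1 culture and 3 in control culture by quantiles, and 0 in both with the hybridisation controls, where 2 in Wnt1 culture and 3 in control culture were called lower. The counts over all probe sets under these scalings are given above. Endothelial markers summed to 1937 and 977 in Wnt1 culture and to 1678 and 1995 in control culture, against 7699 and 8878 in stalk. Epithelial markers were called higher for 1 of 8 in Wnt1 culture and 2 of 8 in control culture as deposited, and for 0 in both with equal medians. Of 5 red cell markers, 2 were called lower in Wnt1 culture and 4 in control culture, beside 4.34% and 6.42% of all probe sets. In each culture 1 red cell marker, Hbb-y, was called higher, averaging 172836 in Wnt1 culture and 234989 in control culture, against 38876 in stalk. Red cell markers summed to 234895 and 140992 in Wnt1 culture and to 341855 and 148085 in control culture, against 116697 and 66087 in stalk. The part of these cell types, and of the RNA quality and signal scale described above, in the collagen values was not tested.

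A ratio of chains on the same array depends on the linear scaling of that array only through the 44 added to each signal. It is not free of array differences that act unequally on bright and dim probe sets. In control culture minus stalk, for example, the median was -0.15 over brighter probe sets and 0.72 over all. Col1a1 averaged 1043 in stalk and Col1a2 14457. The part of such differences, and of the 3′ to 5′ ratios given above, was not tested. The pairs below share a protein or a class and were chosen after their values were seen, so they are descriptions with no test, each given as a log2 ratio minus its mean in stalk. The ratio of Col1a1 to Col1a2, whose chains form type I collagen together, was 1.15 and 2.17 in Wnt1 culture, 0.76 and 2.28 in control culture and -0.16 and -0.10 in tip, against -0.31 and 0.31 in stalk. All 4 culture arrays were above all 4 uncultured arrays, as they were with Col1a1 1423669_at or Col1a2 1423110_at in place of the leading probe set, but not with the dim Col1a2 1446326_at, where Wnt1 culture replicate 1 was at -0.40. The ratio of Col12a1 to Col14a1 was 3.69 and 3.03 in Wnt1 culture, 3.81 and 2.65 in control culture and 0.78 and 0.59 in tip, against 0.26 and -0.26 in stalk. Here too the culture arrays lay apart, with the reservation that Col12a1 was below the noise level on uncultured arrays. On Wnt1 culture replicate 2 both chains were below it, Col12a1 at 148 and Col14a1 at 221.

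The ratio of the type VI chains depended on the probe set. With the leading probe sets, the ratio of Col6a2 to Col6a1 was -1.47 and -1.10 in Wnt1 culture, -0.65 and 0.76 in control culture and -0.40 and -0.17 in tip, against -0.22 and 0.22 in stalk, so both Wnt1 arrays were lower than the other 6 arrays. With Col6a2 1426947_x_at in its place the same ratio was 0.47 and 0.46 in Wnt1 culture, 0.54 and 0.89 in control culture and 0.18 and 0.57 in tip, against -0.10 and 0.10 in stalk, so the stalk arrays were the lowest and the Wnt1 arrays lay among the others. The ratio of Col6a3 to Col6a1 differed more within each of the culture and tip groups than between groups, at -0.27 and 0.60 in Wnt1 culture, -0.55 and 0.42 in control culture and -0.85 and 0.15 in tip, against -0.04 and 0.04 in stalk. The ratio of Col5a1 to Col5a2 was 0.56 and -0.0022 in Wnt1 culture, 0.68 and 0.72 in control culture and 0.26 and -0.41 in tip, against -0.02 and 0.02 in stalk. The control arrays were the highest of the 8 in this ratio, but not with Col5a1 1434479_at or Col5a2 1450625_at in place of the leading probe set.

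**Figure D4:**
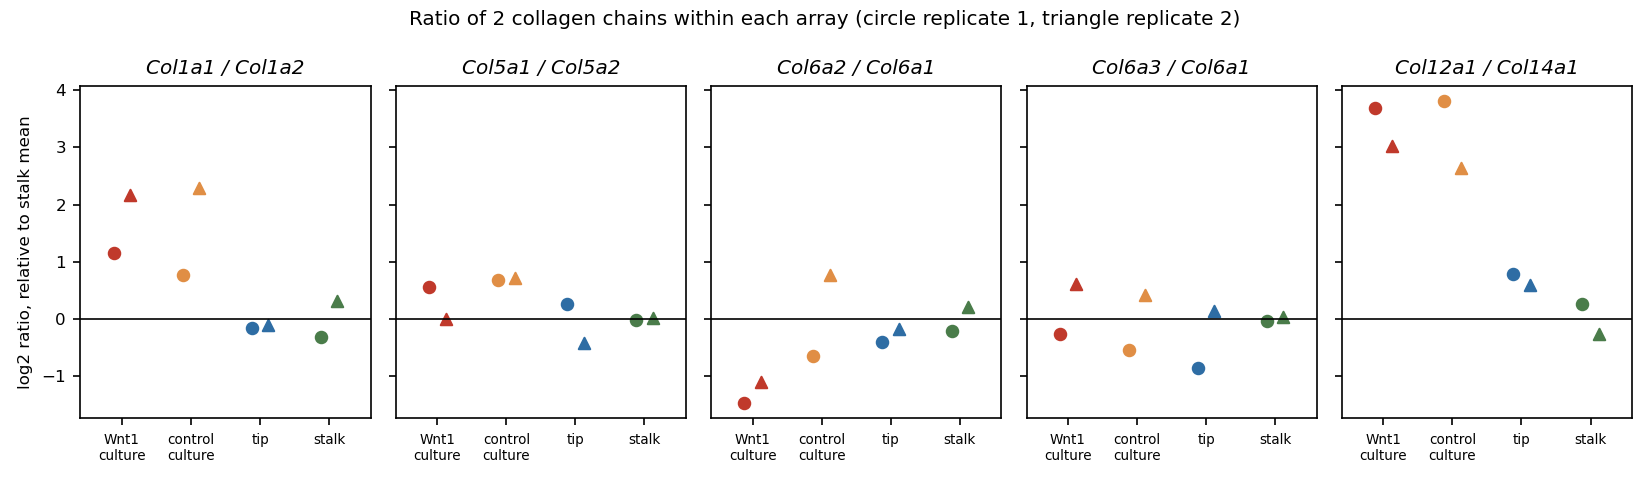
Log2 ratio of chains within each array minus the mean of that ratio in stalk, for 5 pairs of leading probe sets. Groups run from Wnt1 culture to stalk, circles are replicate 1 and triangles replicate 2. For Col1a1 over Col1a2 and Col12a1 over Col14a1 the 4 culture arrays (0.76 to 2.28 and 2.65 to 3.81) lie above the 4 uncultured arrays. Col12a1 was below the noise level on uncultured arrays, and both Col12a1 and Col14a1 were below it on Wnt1 culture replicate 2. For Col6a2 over Col6a1 the Wnt1 arrays are the lowest on these probe sets.

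The genes that process, bind and break down these collagens were taken as 7 lists, 1 leading probe set per gene, described by counts. In tip minus stalk 0 genes of any list were called, and the 2 largest values per list follow as values. Of the enzymes that hydroxylate, glycosylate and fold the chains, Colgalt2, a collagen galactosyltransferase, was at -0.92 ± 0.61 and the prolyl isomerase Fkbp14 at -0.50 ± 0.38, and 13 of 20 were below 0. Of the cross-linking and propeptide-removing enzymes, Lox, which oxidises lysines for cross-links, was at -0.75 ± 0.36 (1039 in tip, against 1780.05 in stalk) and the propeptide protease Tll1 at -0.35 ± 0.63, and 7 of 9 were below 0. Of the fibril-binding proteins, Comp was at 0.72 ± 0.78 and Tgfbi at -0.59 ± 0.37, and of the receptors, the integrin chains Itga2 and Itgb1 were at -0.52 ± 0.64 and 0.38 ± 0.68. Of the breakdown genes, the surface protease Fap was at -1.27 ± 0.64 and the membrane collagenase Mmp14 at -0.67 ± 0.48, and 10 of 11 were below 0. The counts of genes below 0 stand beside 46.4% of all probe sets. Of the other collagen chains, the cartilage-type Col9a1 was at -0.93 ± 0.44 and the transmembrane Col23a1 at -0.76 ± 0.52, while of the basement membrane chains Col4a4 was at 1.35 ± 0.52 and Col4a3 at 0.97 ± 0.67.

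In Wnt1 minus control culture 0 genes of any list were called either. The widest values were those of Cspg4 (the NG2 proteoglycan, a type VI collagen receptor), at -2.33 ± 0.57, Colgalt2 at -2.22 ± 0.61, and the prolyl 3-hydroxylase P3h2 at 2.02 ± 0.53, each with an adjusted p of 0.593 (limma). P3h2 averaged 441 in Wnt1 culture and 69.4 in control culture. Receptors were below 0 for 9 of 11 genes and fibril-binding proteins for 13 of 15, beside 57.8% of all probe sets, with Tgfbi, a collagen-binding matrix protein, at -1.18 ± 0.37 and Itgb1, the shared chain of collagen-binding integrins, at -1.50 ± 0.68. The tenascin Tnxb was at -0.97 ± 0.54. Of the cross-linking and propeptide genes, the lysyl oxidase relative Loxl4 was at -1.45 ± 0.69 and Tll1 at 0.90 ± 0.63, and of the breakdown genes Fap was at -1.10 ± 0.64 and the gelatinase Mmp2 at -0.93 ± 0.42. Of the collagen chains outside the 10, Col11a2 was at 1.07 ± 0.63, Col9a1 at -0.97 ± 0.44, and the basement membrane chains Col4a6 and Col18a1 at -1.12 ± 0.59 and -1.08 ± 0.43.

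Between control culture and stalk, called list genes included several that kept their direction relative to the median of all probe sets under the 4 scalings. Of the fibril-binding proteins, 4 of 15 rose and 1 fell on the deposited scale, beside 16.8% of all probe sets called higher and 6.42% lower. The 4 higher calls became 1 with equal medians, 1 by quantiles and 0 with the hybridisation controls, and the lower call stayed 1 in each. Tnxb, the tenascin that spaces fibrils, rose by 2.58 ± 0.54 (529 in control culture, against 50.7 in stalk), and the small leucine-rich proteoglycans Lum (1.93 ± 0.49) and Podn (2.01 ± 0.52) rose as well, while Tgfbi fell by 1.62 (SE 0.37, 2671 in control culture, against 7827 in stalk). The fourth that rose, Fmod (1.59), is named after its value was seen. Lum and Podn turned below 0 with the hybridisation controls but stayed above the median of all, by 0.75 to 1.75 and 0.96 to 1.47. Of the receptors, Antxr2, a receptor that takes up type VI collagen, fell by 1.95 (SE 0.48) and the fibril-sensing kinase Ddr2 by 1.64 (SE 0.54), both below 0 under all 4 scalings, and Ddr1 rose by 1.40 ± 0.41 as deposited but turned relative to the median of all.

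The counts of the other lists are on the deposited scale too, beside the same shares of all probe sets. Over the 94 tested genes of the 7 lists, 16 were called higher and 5 lower as deposited, 3 and 21 with equal medians, 8 and 3 by quantiles and 0 and 47 with the hybridisation controls. Over all 37414 probe sets these counts were 6286 and 2401, 1615 and 9457, 998 and 1270, and 250 and 17773, in the same order. Of 20 hydroxylation and folding genes, the isomerase Ppib (1.96 ± 0.45) and the collagen-secretion factor Creb3l1 (2.07 ± 0.54) rose and P3h2 fell by 1.93 (SE 0.53), and of 9 cross-linking and propeptide genes Loxl1 alone rose (2.04 ± 0.38, 1308 in control culture, against 281 in stalk). Ppib, Creb3l1 and Loxl1 turned below 0 with the hybridisation controls but stayed above the median of all. Of 11 breakdown genes, the metalloproteinase inhibitor Timp2 (1.89 ± 0.40), the neutrophil collagenase Mmp8 (2.21 ± 0.68) and the lysosomal protease Ctsb (1.30 ± 0.43) rose as deposited, of which Ctsb turned relative to the median of all. Of 20 other collagen chains, Col19a1 (3.18 ± 0.65), Col8a1 (2.88 ± 0.66), Col16a1 (1.64 ± 0.37) and Col5a3 (1.96 ± 0.62, named after its value was seen) rose and Col23a1 fell by 1.66 (SE 0.52). Of 8 basement membrane chains Col4a4 rose (1.97 ± 0.52). With the hybridisation controls, Timp2, Ctsb, Col16a1 and Col4a4 were below 0. Col19a1 and Col8a1 averaged 14.2 and 10.8 in stalk, under the noise level, so the size of their rise is uncertain, and both stayed above 0 under all 4 scalings.

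In Wnt1 culture minus stalk, with the same stalk arrays, 5 list genes that fell were Antxr2 (-2.67 ± 0.48), Tgfbi (-2.80 ± 0.37), Ddr2 (-1.88 ± 0.54), Col23a1 (-1.77 ± 0.52) and Col18a1, the source of endostatin (-1.78 ± 0.43), and all 5 were below 0 under the 4 scalings. Col8a1 (2.92 ± 0.66), Col19a1 (2.30 ± 0.65), Loxl1 (2.35 ± 0.38), Ppib (1.74 ± 0.45), Timp2 (1.87 ± 0.40) and Col4a4 (1.92 ± 0.52) rose as deposited and stayed above the median of all under the 4 scalings, although Loxl1, Ppib, Timp2 and Col4a4 turned below 0 with the hybridisation controls. Over the 94 tested list genes, 6 were called higher and 5 lower as deposited, beside 7.09% and 4.34% of all probe sets. These counts were 2 and 22 with equal medians, 3 and 2 by quantiles and 1 and 40 with the hybridisation controls. Over all 37414 probe sets they were 1243 and 7256, 419 and 476, and 241 and 15837, in the same order. None of the 15 fibril-binding proteins was called higher in this comparison. Whether that differs from control culture is the Wnt1 minus control comparison, in which no list gene was called.

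The mean log2 profile of the 10 leading probe sets, each centred on its own mean, was 0.41 and -0.49 on the Wnt1 culture arrays, 0.21 and 0.97 on the control culture arrays and -0.70 and -0.31 on the tip arrays, against -0.01 and -0.09 on the stalk arrays. Control culture replicate 2 was the highest and tip replicate 1 the lowest. Among chains, Col5a1 lay closest to this mean profile (root mean square difference 0.302 log2 units over 8 arrays) and Col12a1 farthest (0.894). Of 8769 other genes bright enough to compare, the 8 closest to the mean profile were Gm2137 (0.132), Tmub2 (0.165), Nfatc4 (0.170), Pip5k1c (0.186), Ubr2 (0.196), Hdhd3 (0.200), Pomgnt2 (0.210) and Slc4a2 (0.211). All profiles share the same 8 arrays, so array-wide differences enter this measure.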

How the data were processed

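Biotin-labelled RNA, amplified in 2 cycles of cDNA synthesis, was measured on 8 Affymetrix arrays, per the labels' protocols. For every probe set the deposited table holds a linear intensity on each array. The tools named are Affymetrix Expression Console and MAS5, without versions or settings, per the submitters' processing notes. The genome build is not given in the sources used here. Detection calls were not used here. Depth has no counterpart on arrays, and the number of arrays limits the precision.

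Of 45101 probe sets, 64 controls were left out, 34945 of the rest have 1 gene symbol on the platform annotation, 932 several and 9160 none. Only probe sets with 1 symbol were named, and 34741 matched a gene of the RefSeq table (GRCm38.p6) by gene identifier. Probe sets above 96.44 (the 40th percentile) on at least 2 arrays were kept, 37414 in all. Values were tested as log2(value + 44), 44 being the 25th percentile, so fold changes of dim probe sets are understated. All 8 arrays were fitted in 1 model with limma 3.58.1 in R 4.3.3 (lmFit, eBayes with an intensity trend), without covariates. Tests were two-sided, with p-values adjusted by Benjamini-Hochberg over all 37414 probe sets and a threshold of 0.05. With 2 arrays against 2, an exact permutation test cannot reach that threshold and none was run. The fit was tested on simulated data.

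The collagen genes, the lists and the tests were chosen with earlier results of these data known. Every probe set of the 10 genes was counted, but not every value of the further probe sets is printed. From each list the text names up to 4 genes past the threshold by p, or, with none, the 2 with the largest change, and as most similar profiles the 8 genes with the smallest root mean square difference from the mean collagen profile. Fmod and Col5a3 were named outside this rule. The 22 alternatives changed the pseudocount, filter, scaling, variance model, arrays used, treatment of probe sets and replicate block. Plots were made in Python 3.11.15 (matplotlib 3.10.9).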

Additional observations from a re-analysis of the deposited data

How the results depend on the processing

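Fold changes of the leading probe sets were computed 876 times under 22 alternatives (21 for Col12a1, whose leading probe set did not pass the 60th percentile filter). They kept direction and side of the threshold 776 times, lost a call 29 times, gained one 18 times and reversed 53 times, 31 of these outside the alternatives that leave out 1 array. Limits are the 2 arrays per group, the wide spread of culture replicates, and dim signal: Col12a1 on uncultured arrays was under the stand-in noise level. The cause of each change below was not tested, except that fewer probe sets enter where 1 value per gene is used or the filter is stricter, and fewer arrays where 1 is left out.

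Log2 fold changes of leading probe sets reversed as follows. With arrays scaled to the hybridisation controls, Col12a1 was -0.31 in tip minus stalk. With arrays scaled to the hybridisation controls, Col5a2 was 0.22 and Col6a3 0.013 in Wnt1 culture minus control culture. With arrays scaled to the hybridisation controls, Col1a1 was -1.41, Col3a1 -2.92, Col5a1 -2.36, Col6a1 -1.83, Col6a2 -1.84, Col6a3 -1.80 and Col12a1 -0.064 in control culture minus stalk. With arrays scaled to the hybridisation controls, Col1a1 was -1.56, Col5a1 -2.58, Col6a1 -2.002, Col6a3 -1.79 and Col12a1 -0.32 in Wnt1 culture minus stalk. With the mean of the probe sets of a gene, Col12a1 was -0.048 in tip minus stalk. With the mean of the probe sets of a gene, Col3a1 was -0.41 in control culture minus stalk. With the mean of the probe sets of a gene, Col6a2 was 0.081 in Wnt1 culture minus stalk. With equal array medians, Col5a2 was 0.089 in Wnt1 culture minus control culture. With equal array medians, Col1a1 was -0.010, Col3a1 -1.46, Col5a1 -0.93, Col6a1 -0.47, Col6a2 -0.44 and Col6a3 -0.49 in control culture minus stalk. With equal array medians, Col1a1 was -0.27, Col5a1 -1.26, Col6a1 -0.74 and Col6a3 -0.55 in Wnt1 culture minus stalk. With quantile normalization, Col3a1 was -0.48 and Col5a2 0.036 in control culture minus stalk.

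Leaving out 1 array at a time reversed these, given as their lowest and highest values. In tip minus stalk, they were Col3a1 -0.28 to 0.091, Col5a1 -0.32 to 0.049, Col5a2 -0.21 to 0.097, Col12a1 -0.17 to 0.36. In Wnt1 culture minus control culture, they were Col1a1 -1.51 to 0.52, Col1a2 -1.27 to 0.0081, Col5a1 -1.17 to 0.0035, Col5a2 -0.73 to 0.41, Col6a1 -1.32 to 0.31, Col6a3 -0.86 to 0.32, Col12a1 -1.52 to 0.32. In control culture minus stalk, they were Col1a2 -0.29 to 0.22, Col3a1 -0.22 to 0.39, Col5a2 -0.67 to 0.47. In Wnt1 culture minus stalk, they were Col3a1 -0.84 to 0.0086, Col5a1 -0.13 to 0.16, Col6a1 -0.32 to 1.31.

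For tip minus stalk, 0 collagen probe sets called stayed 0 in 22 alternatives. For Wnt1 culture minus control culture, 0 collagen probe sets called stayed 0 in 22 alternatives. For control culture minus stalk, the 6 collagen probe sets called became 2 with the 60th percentile filter on 4 arrays, with 1 leading probe set per gene and with mean of the probe sets of a gene, 0 with quantile normalization, 10 with arrays scaled to the hybridisation controls and 1 with values raised to the highest array median. They ran from 0 to 8 without 1 array. For Wnt1 culture minus stalk, the 2 collagen probe sets called became 5 with arrays scaled to the same median, 0 with quantile normalization, with values raised to the highest array median and with mean of the probe sets of a gene, 10 with arrays scaled to the hybridisation controls, 1 with no intensity trend, with array quality weights and with 1 leading probe set per gene and 4 with replicate block. They ran from 0 to 4 without 1 array.

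For tip minus stalk, the 0 probe sets called in all became 2 with arrays scaled to the hybridisation controls and 3 with values raised to the highest array median and with array quality weights. For Wnt1 culture minus control culture, the 0 probe sets called in all became 1 with pseudocount 1, with mean of the probe sets of a gene and with replicate block and 46 with values raised to the highest array median. They ran from 0 to 58 without 1 array. For control culture minus stalk, the 8687 probe sets called in all became 4242 with the 60th percentile filter on 4 arrays, 2268 with quantile normalization, 18023 with arrays scaled to the hybridisation controls, 675 with values raised to the highest array median, 4248 with 1 leading probe set per gene and 3820 with mean of the probe sets of a gene. They ran from 214 to 14234 without 1 array. For Wnt1 culture minus stalk, the 4276 probe sets called in all became 2064 with pseudocount 200, 8499 with arrays scaled to the same median, 895 with quantile normalization, 16078 with arrays scaled to the hybridisation controls, 115 with values raised to the highest array median, 2614 with no intensity trend, 2223 with array quality weights, 2617 with 1 leading probe set per gene, 2009 with mean of the probe sets of a gene and 8515 with replicate block. They ran from 179 to 12699 without 1 array.

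The same replicate numbers occur in each group, but the labels do not say that a number marks a shared litter or day. Deviations of same-numbered arrays correlated at -0.01 for tip and stalk, 0.27 for Wnt1 and control culture, 0.15 for control culture and stalk and 0.15 for Wnt1 culture and stalk. With the replicate block, collagen probe sets called numbered 0, 0, 6 and 4 in the 4 comparisons, in the order above, and probe sets called in all numbered 0, 1, 12528 and 8515.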
